A study of Rattus norvegicus with 14 samples.

Results

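Ucp2, Ucp3, Slc25a4 and Slc25a5 encode uncoupling proteins and ADP/ATP carriers of the mitochondrial carrier family, and 5 of the 31099 probe sets in the deposited table read them (4 of 14217 named genes). A probe set is a group of short DNA probes that together give 1 signal for a transcript. Every probe set was taken whose array annotation gives exactly 1 gene symbol equal to one of these names, which gave 1 probe set each for Ucp2 (1368669_at), Slc25a4 (1388112_at) and Slc25a5 (1388163_at) and 2 for Ucp3 (1382958_at and 1387681_at). All 5 were tested, with no filter on low signal. The samples were left ventricles of male Wistar rats, 7 control and 7 diabetic, with 1 animal on each of 14 Affymetrix Rat Genome 230 2.0 arrays. Controls received saline into a tail vein under halothane, and diabetic animals streptozotocin at 60 mg/kg by the same route. Streptozotocin is toxic to pancreatic beta cells, so the model is one of insulin deficiency. Hearts were perfused and the left ventricle taken at 16 weeks. The labels name no ages and do not say which animals shared a cage or which of 2 RNA kits each sample went through. The description field of the diabetic samples names saline, whereas their titles, source and protocol name diabetes or streptozotocin, and groups followed the titles. The comparison asks how transcript levels in the ventricle differed between diabetic and control rats.

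Carriers of this family span the inner mitochondrial membrane and move metabolites, nucleotides or protons across it. The ADP/ATP carriers import ADP and export ATP, and so tie ATP synthesis in the matrix to its use in the cytosol. Slc25a4 (also called Ant1) is the form typical of heart and skeletal muscle, and Slc25a5 (Ant2) is found in many dividing and non-dividing tissues. Uncoupling proteins can let protons return to the matrix without ATP synthesis. Ucp3 is found mainly in skeletal muscle, brown fat and heart and is induced by fatty acids through peroxisome proliferator-activated receptors (PPARs), whereas Ucp2 is found in many tissues, among them immune cells. What Ucp2 and Ucp3 carry in the living heart is still debated.

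Ucp3 and Ucp2 are direct neighbours on rat chromosome 1, on the same strand with Ucp3 first, in the RefSeq gene order of the assembly GRCr8. Since one of them changed and the other did not pass the test, the 250 bases before each start site are shown, beside those of the ADP/ATP carriers. They come from RefSeq promoters of GRCr8 and all lie on the plus strand, at chr1:164227660-164227909 (Ucp3), chr1:164251123-164251372 (Ucp2), chr16:52805271-52805520 (Slc25a4) and chrX:120897366-120897615 (Slc25a5). Capitals mark AGGTCA, the hexamer that nuclear receptors such as the PPARs read as part of their sites, and TATAA, the core of a TATA box.
Ucp3: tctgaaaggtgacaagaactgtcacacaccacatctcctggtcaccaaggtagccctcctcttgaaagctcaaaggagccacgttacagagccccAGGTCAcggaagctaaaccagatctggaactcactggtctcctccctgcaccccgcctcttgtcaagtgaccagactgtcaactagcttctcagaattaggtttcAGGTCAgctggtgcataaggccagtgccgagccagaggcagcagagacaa
Ucp2: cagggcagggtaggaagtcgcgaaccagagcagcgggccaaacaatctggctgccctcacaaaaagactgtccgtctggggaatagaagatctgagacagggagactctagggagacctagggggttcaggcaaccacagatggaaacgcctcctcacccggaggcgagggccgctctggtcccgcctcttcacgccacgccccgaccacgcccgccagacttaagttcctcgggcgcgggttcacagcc
Slc25a4: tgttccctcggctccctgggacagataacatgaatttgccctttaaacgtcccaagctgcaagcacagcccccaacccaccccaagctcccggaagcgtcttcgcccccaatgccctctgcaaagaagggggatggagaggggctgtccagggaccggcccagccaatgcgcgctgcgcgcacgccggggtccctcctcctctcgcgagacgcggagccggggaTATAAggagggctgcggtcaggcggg
Slc25a5: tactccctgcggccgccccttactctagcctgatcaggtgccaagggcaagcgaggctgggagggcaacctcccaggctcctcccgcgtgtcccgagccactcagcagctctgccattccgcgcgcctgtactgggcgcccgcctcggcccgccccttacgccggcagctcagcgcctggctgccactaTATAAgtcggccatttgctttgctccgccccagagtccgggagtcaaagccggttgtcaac
The Ucp3 window held AGGTCA at 2 places, starting 155 and 50 bases before the start site, and the windows of the other members held it at 0 places on either strand. Over 33469 promoter windows of this length, 14.1% held AGGTCA at least once and 1.27% at least 2 times. The spaced repeat AGGTCANAGGTCA was in 17 of all windows (0.0508%) and in 0 of these 4. TATAA was found 26 bases before the Slc25a4 start and 61 bases before that of Slc25a5, against 24.0% of all windows with a match. The letters CANNTG, which factors of the MyoD type read, occurred 2 times in the Ucp3 window, where the second overlaps the AGGTCA nearest the start site by 2 bases, 2 times before Slc25a5, 1 time before Ucp2 and 0 times before Slc25a4. Of all windows 65.5% held them at least once and 30.76% at least 2 times. The GC box letters GGGCGG occurred 3 times before Slc25a5, all on the minus strand, and in 30.5% of all windows. GC content was 53.6% before Ucp3, 62.8% before Ucp2, 65.6% before Slc25a4 and 66.8% before Slc25a5, against a median of 51.2%. These matches describe letters and do not show that a factor binds there.

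Signals below are log2(scaled signal + 50), quantile normalised between arrays, where scaling set the trimmed mean of each array to 500. Changes are diabetic minus control on that scale, which understates the change of dim probe sets. The floor set by the added 50 is 5.64. Median deposited intensity per array ran from 14.8 to 85.3, and precision is limited by the count of arrays. Control probe sets (spike-ins and beta-actin) split the arrays into 3 sets that the labels do not name: set A (2 control and 2 diabetic), set B (2 and 2) and set C (3 and 3). Set A had beta-actin 3' over 5' log2 ratios of 1.41 to 1.71, a sign of shorter labelled RNA, and set B of 0.67 to 0.84. Set C was told apart by its lower poly-A spike-ins, and 1 of its arrays, diabetic replicate 5, had a beta-actin ratio of 1.47, within the range of set A. That the samples hold heart muscle was checked on Myh6, the alpha-myosin heavy chain. It gave 15.02 ± 0.07 in control and 14.80 ± 0.04 in diabetic hearts (SD, n = 7), far above the floor. This does not check which chamber was taken, and atrial markers are given below.

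Ucp3 was higher in the diabetic ventricle by both of its probe sets, and Ucp2, Slc25a4 and Slc25a5 did not pass the test. Over all 31042 probe sets tested, 0.619% were called higher and 0.522% lower (limma adjusted p under 0.05), 1.14% in all. On probe set 1382958_at the control signal had a lowest value of 7.77, a median of 8.68 and a highest value of 9.31, and the diabetic signal 10.27, 10.65 and 10.93. All 7 diabetic animals lay above all 7 controls, a separation in this direction that 0.635% of all probe sets showed. The means were 8.63 ± 0.65 and 10.62 ± 0.20 (SD, n = 7), a 3.99-fold difference (95% interval 2.80 to 5.67, limma adjusted p = 0.000231, exact two-sided permutation p = 0.000583, the smallest that 7 against 7 allows). On probe set 1387681_at the control signal ran from 8.15 over a median of 8.86 to 9.11, and the diabetic signal from 9.83 over 10.05 to 10.62. Here too the groups did not overlap. The means were 8.69 ± 0.39 and 10.12 ± 0.27, a 2.69-fold difference (2.08 to 3.48, limma adjusted p = 0.000265).

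In deposited units, before any scaling, the Ucp3 intensities of the groups overlapped. On 1382958_at they ran from 24.5 to 367 in control and from 183 to 790.2 in diabetic hearts, and the lowest diabetic value came from the dimmest array, diabetic replicate 1. After scaling to equal trimmed means they ran from 156 to 599 in control and from 1213 to 1937 in diabetic hearts. The control signals lay 2 log2 units or more above the floor, which is set by the added offset and is not a measured background. All control intensities on 1382958_at lay above the median of their array, but by unequal amounts. The lowest were control replicates 3 and 2, at 24.5 and 77 against array medians of 19.8 and 62.8. The highest was control replicate 7, at 367 against 78.3.

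**Figure D1:**
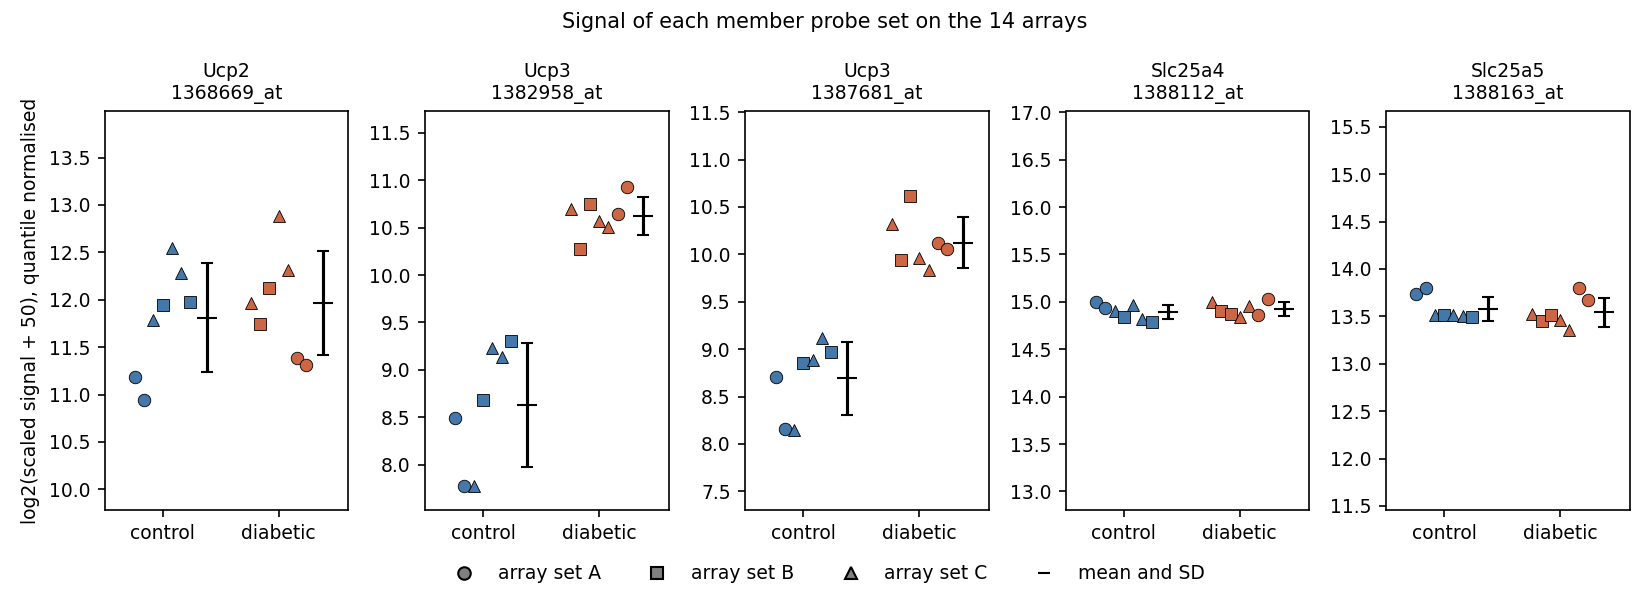
Log2 signal (vertical axis, log2 of scaled signal plus 50, the same span of log2 units in each panel) of the 5 member probe sets on 7 control (blue) and 7 diabetic (orange) arrays, with point shapes for the array sets A, B and C and bars for mean and SD. Both Ucp3 panels show diabetic points above all control points, while in the Ucp2, Slc25a4 and Slc25a5 panels the groups overlap.

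Both Ucp3 probe sets ranked the control animals much alike. The correlations and the comparison of the 2 probe sets given here were chosen after their values were seen. Control replicates 2 and 3 were the lowest 2 controls on both (7.77 and 7.77 on 1382958_at, 8.16 and 8.15 on 1387681_at). Across the 7 controls the probe sets correlated with a Pearson r of 0.952 (exact permutation p = 0.00357, adjusted over the 2 groups 0.00714) and a Spearman rho of 0.857 (exact permutation p = 0.0238, adjusted 0.0476). Without the 2 controls farthest from the median r was 0.738. Across the 7 diabetic animals r was 0.484 (exact permutation p = 0.273) and rho 0.750 (exact permutation p = 0.0663), and r was 0.973 without the 2 animals farthest from the median. The diabetic values spanned 0.65 log2 units on 1382958_at, against 1.54 in control. On 1387681_at these spans were 0.79 and 0.96. The probe sets gave changes of unequal size: that of 1382958_at exceeded that of 1387681_at by 0.57 ± 0.15 (SE, exact two-sided permutation p = 0.00466).

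**Figure D2:**
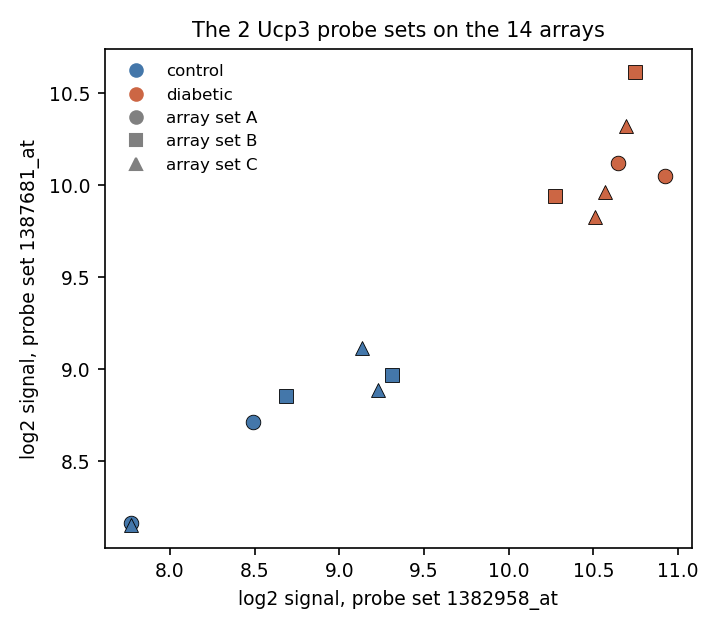
Log2 signal of Ucp3 on probe set 1387681_at (vertical axis) against probe set 1382958_at (horizontal axis), 1 point per array, blue for control and orange for diabetic, with shapes for array sets. The 7 diabetic points lie above and to the right of all 7 control points, with control values from 7.77 to 9.31 and diabetic values from 10.27 to 10.93 on the horizontal axis.

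Ucp3 was higher in diabetic hearts within each array set. The change on 1382958_at was 2.65 in set A, 1.51 in set B and 1.88 in set C, and on 1387681_at it was 1.65, 1.37 and 1.32. In each set every diabetic array lay above every control array on both probe sets. This had to follow from the lack of overlap over all arrays. The separation and direction within sets are therefore not a separate test, and only the sizes of the changes add to it. Refitted within 1 set of 4 or 6 arrays, limma called 0 probe sets in the whole table, Ucp3 included (adjusted p from 0.313 to 0.455). With the array sets as a block, limma adjusted p was 0.000707 and 0.000463 for the 2 probe sets.

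Ucp2 varied widely between animals but not by group. Its control signal had a lowest value of 10.94, a median of 11.94 and a highest value of 12.55, and the diabetic signal 11.31, 11.96 and 12.89. The groups overlapped over most of this range, and 1 diabetic animal, replicate 4, lay above all controls. The means were 11.81 ± 0.57 and 11.96 ± 0.55 (SD, n = 7), a change of 0.15 ± 0.27 (SE, 95% interval 0.744-fold to 1.66-fold, limma adjusted p = 0.926). The interval thus leaves room for a rise or a fall of moderate size. Without diabetic replicate 4 the change was -0.00, and within the array sets it was 0.29, -0.02 and 0.18 for A, B and C.

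The spread of Ucp2 followed the array sets. The 4 arrays of set A were the 4 lowest (10.94 to 11.39), below sets B (11.75 to 12.13) and C (11.79 to 12.89), and both groups were present in each. In a fit with group and array set, also chosen after seeing the data, Ucp2 differed between the sets (limma adjusted p = 0.00935), as did 8.71% of all probe sets. Slc25a5 had its 4 highest values in set A (13.67 to 13.80, against 13.35 to 13.53 elsewhere), but this did not pass the test (adjusted p = 0.121). Neither Ucp3 probe set nor Slc25a4 passed it (adjusted p = 0.808, 0.572 and 0.744). The beta-actin ratio and the summed signal of 8 smooth muscle and pericyte markers (15249 to 17513 in set A, 20323 to 23203 in B and 22745 to 26427 in C) moved with the same sets, and their part in the Ucp2 result was not tested. With the beta-actin ratio as a covariate the Ucp2 change was 0.21 (limma adjusted p = 0.816).

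**Figure D3:**
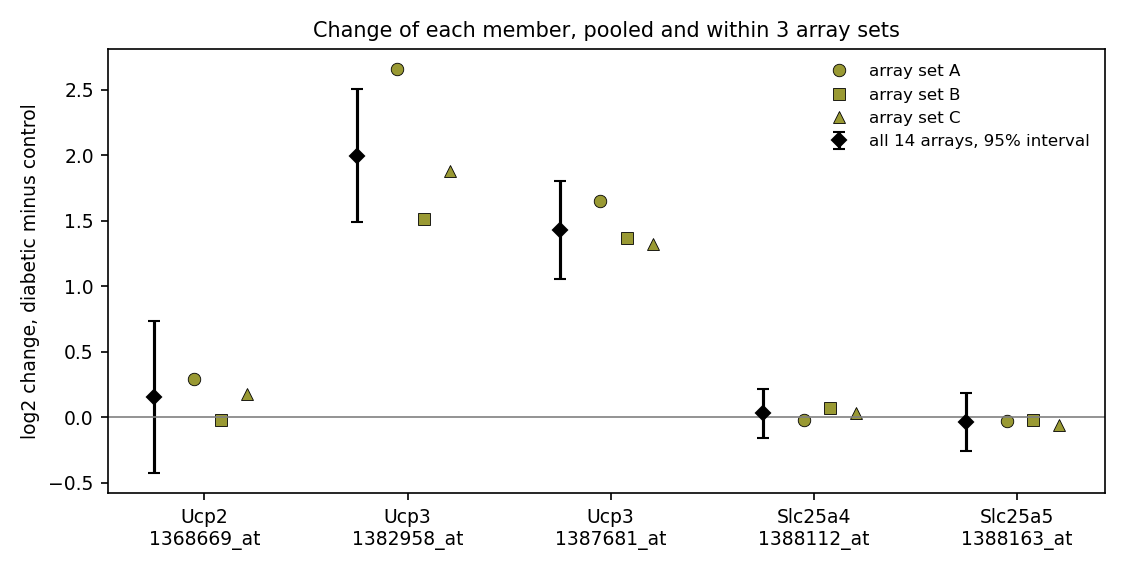
Log2 change, diabetic minus control (vertical axis), for the 5 member probe sets: black diamonds with 95% intervals over all 14 arrays, and olive points within array sets A, B and C. Ucp3 lies between 1.32 and 2.65 in every set, and the other members lie between -0.06 and 0.29.

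The ADP/ATP carriers differed little between the groups. Slc25a4 gave 14.79, 14.90 and 15.00 as its lowest, median and highest control signal and 14.84, 14.90 and 15.03 in diabetic hearts. The groups shared nearly the whole range. The means were 14.89 ± 0.08 and 14.92 ± 0.07 (SD, n = 7), a change of 0.03 ± 0.09 (SE, 95% interval 0.895-fold to 1.16-fold, limma adjusted p = 0.965). Slc25a5 gave 13.49, 13.52 and 13.79 in control and 13.35, 13.51 and 13.80 in diabetic hearts. On it 3 diabetic animals lay below all controls and 1 above. The means were 13.58 ± 0.13 and 13.54 ± 0.15, a change of -0.04 ± 0.10 (0.834-fold to 1.13-fold, limma adjusted p = 0.955). Its sign turned with array medians subtracted (0.01) and with cyclic loess (0.00). At the signals of Slc25a4 quantile normalisation tied the values of some arrays, and saturation of either probe set was not tested. With trimmed-mean scaling alone, which makes no ties, the changes were 0.00 and -0.01.

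Whether members changed by different amounts was tested for all 6 pairs on the difference of their log2 signals within each array, with Ucp3 read by 1382958_at, whose mean over all 14 arrays is the higher of its 2 probe sets. In control hearts alone it was the lower one (8.63 against 8.69), so this choice rests on the diabetic arrays and took the probe set with the larger change. The change of Ucp2 minus that of Ucp3 was -1.84, and that of Ucp3 exceeded Slc25a4 by 1.97 and Slc25a5 by 2.04 (SE 0.30, 0.27 and 0.29). In each of these 3 pairs the differences of all 7 diabetic arrays lay on one side of those of all controls (exact two-sided permutation p = 0.000583, adjusted over 6 pairs 0.00117). With the other Ucp3 probe set these differences were -1.28, 1.40 and 1.47, also past the threshold. The remaining pairs did not pass: Ucp2 against Slc25a4 (0.12 ± 0.32, adjusted exact permutation p = 0.700), Ucp2 against Slc25a5 (0.19 ± 0.36, 0.700) and Slc25a4 against Slc25a5 (0.07 ± 0.07, 0.538). Without diabetic replicate 6 the last difference was 0.12 and its adjusted exact permutation p 0.0446.

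Among the other mitochondrial carriers, 38 were measured, and 2 were higher and 1 lower in diabetic hearts. When each of the 14217 named genes was read by the probe set of highest mean signal, 0.943% were higher and 0.781% lower. The median change of the 38 was -0.08, against -0.00 over all named genes, and Ucp3 had a larger change than any of them. Slc25a29, a carrier of basic amino acids, fell by 1.11 ± 0.17 (SE, limma adjusted p = 0.00169), with all 7 diabetic animals below all controls. A separation in this direction was shown by 0.564% of all probe sets. Slc25a22, a glutamate carrier, rose by 0.98 ± 0.19 (adjusted p = 0.0166), with 6 of 7 diabetic animals above all controls. That call was lost without the 3 dimmest arrays (limma adjusted p = 0.117). Slc25a20, which brings acylcarnitines in for fatty acid oxidation, rose by 0.44 ± 0.10 (adjusted p = 0.0441) in 7 of 7 animals above all controls. Its call was lost in 13 of 14 fits with 1 array left out, all but that without control replicate 6 (adjusted p up to 0.107). Slc25a42, a coenzyme A carrier, and Slc25a21, an oxodicarboxylate carrier, had the smallest p among those not called (0.60 ± 0.16 and 0.74 ± 0.22, adjusted p = 0.117 and 0.176).

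The remaining relatives of the members did not pass the test either; they were named for their kinship after their values were seen. Ucp1, the uncoupling protein of brown fat, lay near the floor in both groups (6.02 ± 0.33 and 6.36 ± 0.45, SD, n = 7, limma adjusted p = 0.657). Slc25a27 and Slc25a31, the latter an ADP/ATP carrier typical of testis, were also dim, with mean signals from 6.10 to 6.91 and changes of -0.14 and -0.24. Slc25a14, a carrier close to the uncoupling proteins in sequence, changed by 0.11 ± 0.20 (SE). Slc25a3, which brings in the phosphate that ATP synthesis needs, changed by 0.01 ± 0.09.

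**Figure D4:**
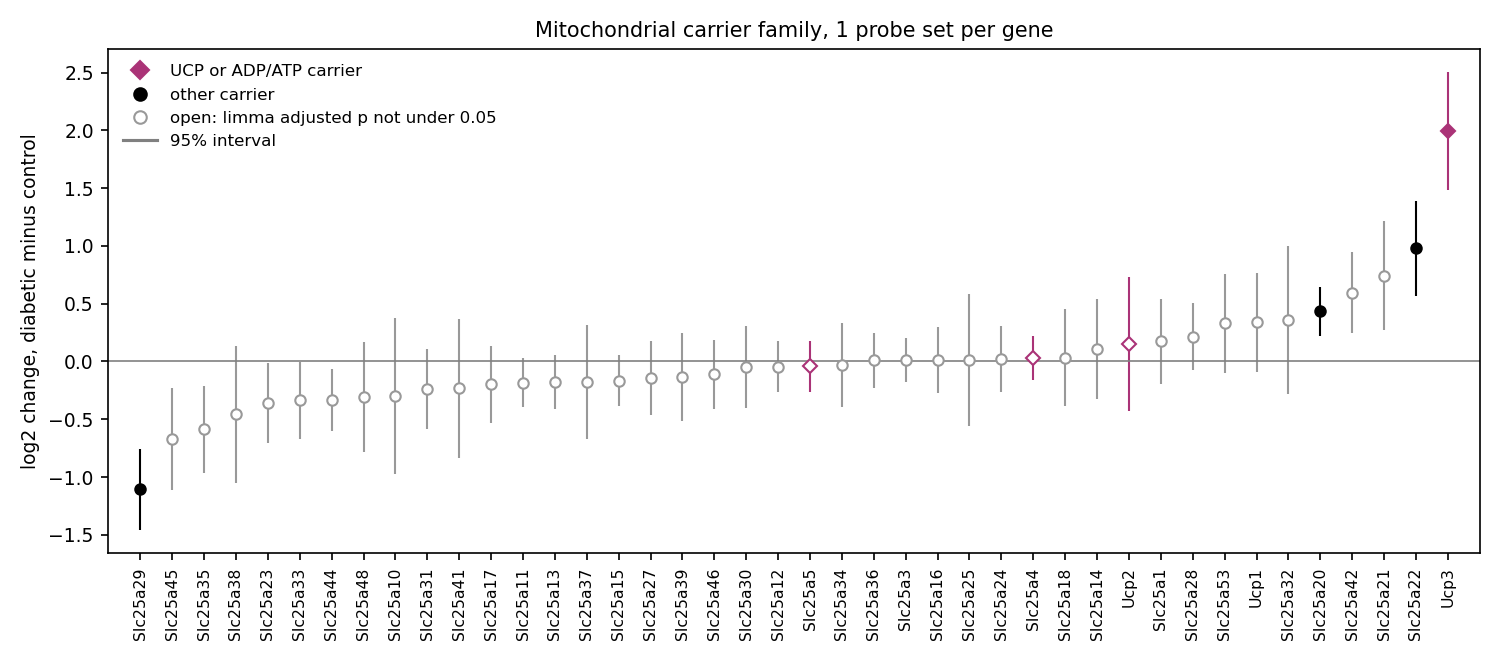
Log2 change, diabetic minus control (vertical axis), with 95% intervals for 42 mitochondrial carrier genes ordered by change, each by its brightest probe set: diamonds for the uncoupling proteins and ADP/ATP carriers studied here, circles for other carriers, open where limma adjusted p is not under 0.05. Ucp3 is at the far right at 2.00, Slc25a29 at the far left at -1.11, and Slc25a5, Slc25a4 and Ucp2 lie near 0.

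Of 30 ATP synthase subunits and partners of ADP/ATP exchange, 0 were higher and 1 was lower, with a median change of -0.08. The gene that fell was Hk2, a hexokinase that can dock on the outer mitochondrial membrane and use exported ATP (-1.57 ± 0.20, SE, limma adjusted p = 0.000318). Ak4, an adenylate kinase of the matrix, and Tspo, an outer membrane protein, had the smallest p of those not called (-0.53 ± 0.14 and 0.34 ± 0.12, adjusted p = 0.0808 and 0.280). Atp5f1b, the catalytic subunit of ATP synthase, gave -0.02 ± 0.09, and Ppif, the cyclophilin that regulates the permeability pore, -0.24 ± 0.17, both named after their values were seen. Among 24 genes of mitochondrial biogenesis and protein import, limma called 0 in either direction, as did the exact rank-sum test and the fit with array sets as a block, while 3 had an unadjusted limma p under 0.05 and 1 was called lower with that block and a trended and robust prior. The smallest p belonged to Opa1, which fuses inner membranes (-0.39 ± 0.12, adjusted p = 0.214), and Tfam, which packages mitochondrial DNA (0.20 ± 0.10, adjusted p = 0.510).

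A list of PPAR-responsive and fatty acid genes linked with Ucp3 in muscle also held regulators: the PPARs, Rxra, Rxrb, Rxrg and Ppargc1a. Over all named genes 0.943% were higher and 0.781% lower, with a median change of -0.00. Of the 27 measured genes of the list, regulators included, 5 rose and 0 fell, with a median change of 0.33. Beside Slc25a20 they were Angptl4, an inhibitor of lipoprotein lipase (4.55 ± 0.32, SE), Acot1, an acyl-CoA thioesterase (3.37 ± 0.26), Pdk4, a kinase that shuts pyruvate dehydrogenase (2.09 ± 0.16), and Cpt1a, an acyl transferase of the outer membrane (1.09 ± 0.13), with limma adjusted p from 1.32e-06 to 0.000256. Control signals of Angptl4 and Acot1 reached near the floor (lowest 5.83 and 6.34), so the size of these changes depends on the offset. Hadha and Plin2 missed the threshold narrowly (0.69 ± 0.16 and 0.46 ± 0.11, adjusted p = 0.0507 and 0.0525). The count varied with the setting: with the array sets as a block 13 of the 27 rose and 0 fell, and without control replicate 6 it was 8 and 0. Over the whole table that block called 645 probe sets, against 354 in the main fit and 317 without control replicate 6. Transcripts of the PPARs and their coactivator Ppargc1a, named after their values were seen, did not pass: Ppara gave 0.07 ± 0.29, close to the floor, Pparg 0.57 ± 0.23, Ppard -0.27 ± 0.13 and Ppargc1a -0.03 ± 0.15.

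Of 15 thermogenic genes typical of brown fat 1 rose and 1 fell. Cidea, a lipid droplet protein, rose by 0.56 ± 0.12 (SE, limma adjusted p = 0.0239), a call lost without control replicate 3 or diabetic replicate 1, 2, 3 or 4 (adjusted p up to 0.0618). Cox7a1, a muscle and brown fat subunit of cytochrome c oxidase, fell by 1.17 ± 0.12 (adjusted p = 5.70e-05). Ucp1 and the hormone gene Fgf21 had the smallest p among those not called (0.34 ± 0.20 and 0.31 ± 0.20). Of 17 redox genes linked with uncoupling proteins 0 rose and 1 fell, Hmox1, the inducible haem oxygenase (-0.68 ± 0.15, adjusted p = 0.0286), whose call was lost in 10 of 14 fits with 1 array left out (adjusted p up to 0.0756), those without control replicates 1, 2, 3, 5 and 7 and diabetic replicates 1, 2, 3, 5 and 7. Cat and Sirt3 were closest to a call among the rest (0.45 ± 0.12 and 0.29 ± 0.11, adjusted p = 0.105 and 0.368).

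Markers of other cell types were read because Ucp3 is also abundant in skeletal muscle and brown fat and Ucp2 in leukocytes, and in whole ventricle RNA fewer cells of a type and less RNA per cell cannot be told apart. Of 9 fat cell markers 4 were higher, against 0.943% of all named genes: Aqp7 (1.30 ± 0.14, SE), Cfd (1.23 ± 0.16), Trarg1 (1.14 ± 0.22) and Fabp4 (0.61 ± 0.11). The calls of Trarg1 and Fabp4 were lost without the 3 dimmest arrays (limma adjusted p = 0.0781 and 0.0769). Of the 9, 7 had a change above 0 and 2 below, the lowest being Pck1, which was not called (-0.41 ± 0.15). The summed signal of the 9 ran from 14038 to 20394 in control and from 27342 to 32047 in diabetic hearts, without overlap. Sums here add linear signals, so the brightest markers weigh most. This sum holds the 4 called genes and is not separate from their calls. The more specific fat cell genes Adipoq, Plin1 and Lep were dim and in part near the floor, at 5.77 to 7.75 over single animals. The upper end lay close to the lowest Ucp3 control signal (7.77 on 1382958_at). Adipoq, Plin1 and Lep were not called (0.36 ± 0.21, 0.05 ± 0.22 and -0.06 ± 0.19). The summed signal of 9 heart muscle markers also did not overlap, at 265699 to 273039 in control and 246714 to 265460 in diabetic hearts, with 0 of 9 called. Of these 9, 8 had a change below 0, the largest in Ckm, muscle creatine kinase (-0.24 ± 0.11), and Myh6 (-0.23 ± 0.09, all 7 diabetic animals below all controls), while Myl3 and Tnni3 gave -0.08 ± 0.09 and -0.10 ± 0.09. Of 10 skeletal muscle markers 0 were called, while 7 had a change above 0 and 3 below, with a median of 0.10. Their sums overlapped, at 9949 over a median of 14608 to 20300 in control and 14623 over 17125 to 30726 in diabetic hearts. Myl1 stood on both the skeletal muscle and the atrial list and is counted in each. All 6 atrial markers had a change above 0, with a median of 0.79 and a range of 0.34 to 1.32, and 1 was called higher, Dkk3 (0.69 ± 0.15, limma adjusted p = 0.0319). Their sums ran from 13743 over a median of 23565 to 51217 in control and from 27176 over 36406 to 53114 in diabetic hearts. The largest changes, in Sln and Myl4 (1.32 ± 0.79 and 1.16 ± 0.73), varied widely between animals and were not called. The call of Dkk3 was lost in 9 of 14 fits with 1 array left out (without control replicate 3, 4, 6 or 7 or diabetic replicate 1, 2, 3, 5 or 7, adjusted p up to 0.0804), and Nppa, the atrial natriuretic peptide gene, was not called (0.56 ± 0.18). No marker of these lists was at 0 on any array. The part of these markers in the Ucp3 result was not tested. For Ucp2, 10 of 13 macrophage and leukocyte markers had a change above 0, with a median of 0.29, among them Mrc1 and Cd163 (0.71 ± 0.18 and 0.71 ± 0.23), which were not called. The 1 called was lower, Cd74 (-0.68 ± 0.13), a call lost without the 3 dimmest arrays (limma adjusted p = 0.0972). The sums of the 13 were 19687 to 25563 in control and 16867 to 24036 in diabetic hearts. Of 9 endothelial, 10 fibroblast and 8 smooth muscle and pericyte markers 0 were called.

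Genes beside the members on their chromosomes mostly did not pass the test. The 5 named protein-coding genes on each side of the Ucp3 and Ucp2 pair were all measured, 0 of 10 were called, and their changes ran from -0.21 to 0.20. C2cd3, next to Ucp3, changed by -0.21 ± 0.14 (SE), and Dnajb13, next to Ucp2, by -0.08 ± 0.18. Around Slc25a4, 8 of 10 neighbours were measured and 0 called (-0.20 to 0.29), among them the adjacent Helt (0.29 ± 0.17) and Cfap97 (-0.17 ± 0.13). Around Slc25a5, 5 of 10 were measured, and Pgrmc1, a haem-binding membrane protein, was higher (0.49 ± 0.11, limma adjusted p = 0.0364). That call was lost in 11 of 14 fits with 1 array left out, all but those without control replicate 1 or 2 or diabetic replicate 4 (adjusted p up to 0.0904). The adjacent Steep1 changed by -0.05 ± 0.17.

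The genes most like each member in their variation between animals were sought among 9382 brighter named genes, by the Pearson correlation of deviations from the group means over 14 arrays. These correlations are a description, since arrays of 1 set share their deviations. For Ucp2 the closest were Golga2 (r = 0.956), Prkcsh (0.935) and Dvl1 (0.934), with 1 gene in 100 above 0.873. For Slc25a5 they were Lsm3 (0.972), N4bp2l2 (0.967) and Skic8 (0.956), with 1 in 100 above 0.872. Likeness was lower for Ucp3, to Ik (0.793), Prpf6 (0.780) and Gemin5 (0.779), with 1 in 100 above 0.561. For Slc25a4 it was highest to Oip5-as1 (0.922), Myl2 (0.888) and Mbtd1 (0.868). None of these 12 genes was called between the groups (limma adjusted p of 0.640 or more). Ucp2 and Slc25a5 moved in opposite directions (r = -0.796), in control (-0.888) and in diabetic hearts (-0.724). Ucp2 and Ucp3 (1382958_at) correlated by 0.446, but by 0.737 in control and -0.302 in diabetic hearts. Slc25a4 and Slc25a5 correlated by 0.313, with 0.654 in control and 0.013 in diabetic hearts.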

How the data were processed

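Each of 14 arrays took 5 µg of left ventricle RNA from 1 rat. The authors deposited 1 intensity per probe set and array, which is linear and not equal in distribution between arrays. The tools MAS5, RMA, affy and limma appear, with no role, per the submitters' processing notes. Here each array was scaled to a trimmed mean of 500 (2% trimmed at each end; factors 1.60 to 8.76), 50 was added, log2 taken and arrays quantile normalised. The 57 control probe sets were not tested.

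The test was limma 3.58.1 (R 4.3.3), fitting group alone by lmFit and eBayes. P-values were two-sided and Benjamini-Hochberg adjusted over 31042 probe sets, with 0.05 as threshold. Single values were tested by exact permutation over 3432 assignments. Of the probe sets, 20826 had 1 symbol, 436 several and 9780 none; 20758 were looked up by gene ID in RefSeq and 0 changed. A gene in a list was read by its brightest probe set. Named were all members, per list up to 6 called genes and the 2 uncalled ones with the smallest p, adjacent genes, the 3 most alike genes per member and marker genes of the cell type lists, of which the uncalled ones were picked after their values were seen. The array-set test, the summed markers by array set and the comparisons of the 2 Ucp3 probe sets were added after seeing the data. Members and lists were chosen with earlier results of these data known. Promoters of all 4 members came from RefSeq. Array sets were cut at the largest gap of the spike-in and beta-actin values. Replicate numbers were not treated as pairs, and same-numbered deviations correlated by -0.162 to 0.0865. These correlations cannot exclude pairing, since same-numbered animals lay in different array sets for every number but 5. The fit was tested on simulated data (7 against 7 arrays, 31042 probe sets, 200 of them shifted): it called 100% of shifts of log2 2, 68% of log2 1 and 16% of log2 0.5, and 9 of its 135 calls were false. The simulated noise was independent between arrays and probe sets and held no array sets. These shares therefore need not hold for the real arrays. The labels name the samples as biological replicates.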

Additional observations from a re-analysis of the deposited data

Results flagged for a closer look

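In a group of 7, an animal was singled out when its gap to the nearest other animal exceeded Dixon's 95% critical share of the group's range. Of 150 groups tested, over 75 probe sets of members and other named genes, 10 were singled out, and chance gives about 5% of groups. None of the 5 member probe sets had such an animal. Control replicate 1 was high for Ucp1 (6.70, next 6.06) and for Fgf21 (6.58, next 6.05), both near the floor. Control replicate 2 was low for Cidea (12.14, next 12.48) and Adipoq (5.85, next 6.70). Diabetic replicate 1, the dimmest array, was high for Aqp7 (13.32, next 13.17). For Lep, control replicate 6 (7.06, next 6.13) and diabetic replicate 6 (6.48, next 6.06) stood high. Diabetic replicate 7 was high for Dkk3 (12.49, next 12.01) and low for the heart muscle gene Myl3 (14.54, next 14.70). Diabetic replicate 5 was low for Tnni3, cardiac troponin I (14.55, next 14.74).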

How the results depend on the processing

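Ucp3 kept its direction in all 32 other settings and its call in 29 on both probe sets, with changes from 1.51 to 2.65 and from 1.16 to 1.65. The exceptions were the fits within 1 array set, where limma called 0 probe sets of the whole table and 0 member probe sets: 2.65 and 1.65 in set A (adjusted p = 0.455 for both), 1.51 and 1.37 in B (0.351 and 0.350), and 1.88 and 1.32 in C (0.313 and 0.355). With each array left out in turn, 2 member probe sets were called each time, with changes from 1.85 to 2.11 and from 1.34 to 1.504. Ucp2 ranged from -0.0018 (without diabetic replicate 4) to 0.28 over these fits and was -0.023 within set B. Slc25a4 ranged from 0.011 to 0.046 and was -0.020 within set A. Slc25a5 ranged from -0.084 to -0.0051, and was 0.0098 with array medians subtracted and 0.0015 with cyclic loess. No member without a call gained one.

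Over the whole table, 354 probe sets were called. The count was 566 with an offset of 200, 543 with a trended and robust prior, 645 with the array sets as a block, 1329 with both (chosen after seeing the data), 558 among probe sets of above-median signal, 190 without the 3 dimmest arrays, 174 at a threshold of 0.01, 143 with a replicate block, and 261 to 332 with 1 array left out. With the replicate block the Ucp3 changes kept their calls (limma adjusted p = 0.00235 and 0.0116), although the labels do not say that these numbers pair animals. Of 18 other named genes with a call, 9 lost it under that block, 9 without the 3 dimmest arrays and 5 with array medians subtracted. Of the 27 PPAR and fatty acid genes the number higher was 4 to 8 with 1 array left out, 11 with an offset of 200 or by the exact rank-sum test, 8 with array weights, 12 with the trended and robust prior or among probe sets of above-median signal, 10 with the beta-actin ratio as a covariate, 13 with the array sets as a block, 17 with that block and prior together (with 1 lower), and 0 within any single array set. Over all settings 0 to 4 of the 38 other carriers were higher and 0 to 2 lower, 0 to 2 and 0 to 3 of the 30 ATP synthase and exchange genes, 0 to 1 and 0 to 1 of the 15 thermogenic genes, 0 and 0 to 1 of the 24 biogenesis and import genes, and 0 to 2 and 0 to 5 of the 17 redox genes. The block and prior together gave 2 and 5 redox genes and 2 and 3 ATP synthase and exchange genes. With the replicate block Trarg1, Fabp4 and Cd74 were among the calls lost (limma adjusted p = 0.115, 0.128 and 0.128).

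For unequal change, the 3 pairs with Ucp3 passed in all 21 other settings, also when permuted within array sets (chosen after seeing the data). That permutation had to give its smallest p (0.00278 over 720 assignments), since the differences of the groups did not overlap. It is therefore not a separate test. With 1 array left out, Ucp2 minus Ucp3 ranged from -2.01 to -1.68, Ucp3 minus Slc25a4 from 1.81 to 2.09 and Ucp3 minus Slc25a5 from 1.85 to 2.16. Ucp2 minus Slc25a4 ranged from -0.044 to 0.25, turning to -0.028 without control replicate 2 and -0.044 without diabetic replicate 4. Ucp2 minus Slc25a5 ranged from 0.01 to 0.33, and Slc25a4 minus Slc25a5 from 0.032 to 0.12, past the threshold only without diabetic replicate 6 (0.12). The cause of these changes was not tested. Detection calls were not used, so signals near the floor cannot be told from background.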
